A study of Mus musculus with 4 samples.

Results

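The genes that write and erase methylation of histone H3 at lysine 27 were followed in mouse CD4+ T cells cultured with and without dopamine. They were the 9 rows, of 38282 gene rows in the deposited tables, whose Ensembl IDs carry the names of 7 genes of Polycomb repressive complex 2 (PRC2) and of 2 H3K27 demethylases in the GENCODE M21 annotation. All 9 were found and all 9 passed the filter on low values. The cells were naive CD4+ T cells from the spleen of C57BL/6 mice, kept in Th0 culture (activation without lineage-steering cytokines) as the group Th0 or in Th0 culture with dopamine as the group Th0+Dopa, and were harvested on day 4. The study's title concerns dopaminergic nerves and Th2 inflammation in the lung after birth. Each group held 2 libraries, numbered 2 and 3, and the libraries of 1 number share a table that was made separately from the other. Neither the dose of dopamine nor the age of the mice is stated in the labels.

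PRC2 places methyl groups on lysine 27 of histone H3, and the trimethylated mark is bound by forms of Polycomb repressive complex 1 and keeps genes silent. Ezh2 and its paralog Ezh1 are the alternative catalytic subunits, while Eed, which binds the finished mark, and Suz12, the scaffold, are needed by both. Mtf2 and Phf19 belong to one form of the complex (PRC2.1) and Jarid2 to another (PRC2.2), and these factors bring it to chromatin. Kdm6a (UTX) and Kdm6b (JMJD3) remove the mark. In CD4+ T cells, Ezh2 is known to restrain the cytokine and lineage genes of helper subsets, and its level is known to be high in dividing lymphocytes.

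Levels are in FPKM, a count of sequenced fragments divided by transcript length and by library size, so they can be set side by side between genes. Differences are Th0+Dopa minus Th0 on the log2(FPKM + 1) scale, taken within each table and averaged over the 2 tables, with the standard error (SE) after ±. They were tested with limma over 11423 genes with a mean of at least 1 FPKM, and a Benjamini-Hochberg adjusted p under 0.05 was a call. Because of the added 1, this scale understates changes of low genes. By this rule 10.7% of tested genes were called, 6.28% higher and 4.39% lower with dopamine. The labels name no separate mice or cultures behind the 2 libraries of a group, so a p-value covers only the spread among the 4 libraries, and that spread may be technical.

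Markers of other cell types were measured beside those of T cells, and the myeloid ones moved with the treatment. Of 12 macrophage and dendritic cell markers 10 fell, with summed levels of 539 and 693 FPKM in Th0 against 153 and 123 with dopamine, and of 8 tested granulocyte, basophil and mast cell markers 8 fell, from 446 and 593 FPKM summed over 9 genes to 50 and 46.5. Of the 10 macrophage and dendritic cell markers that fell, 6 passed the filter only through the Th0 group, where they are high. None of these markers was at 0 in all libraries. Of 9 CD4 T cell markers 3 rose (Cd3d, Cd5 and Zap70), and the 9 summed to 1143 and 1142 FPKM in Th0 and 1371 and 1307 with dopamine. The rise was not shared by all: 7 had differences above 0 and 2 below, Cd4 (-0.06 ± 0.10) and Lck (-0.02 ± 0.11). B cell, CD8 T and NK cell, and erythroid markers summed to between 1.00 and 6.39 FPKM a library. The part of such cells in the differences below was not tested. The deposited FPKM also summed to different totals, 687066 and 715110 in Th0 against 880583 and 794873 with dopamine, with 15974 to 19177 genes above 0 in a library. In bulk RNA, fewer cells of a type and less RNA per cell cannot be told apart.

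The DNA before the start sites of the PRC2 core genes Ezh2, Eed and Suz12 and of Jarid2 is shown first. Ezh2, Eed and Jarid2 had the most negative differences of the 9 genes (-0.47, -0.47 and -0.60), and Suz12 had -0.04. Mtf2 (-0.11) and Kdm6a (-0.09) were also lower with dopamine in both tables. The sequences come from RefSeq on GRCm38.p6, which held promoters for 8 of the 9 genes, and are printed 5′ to 3′ on the gene's strand. Capitals mark the letters CCAAT on either strand and an E2F motif (TTTCCCGC or TTTGGCGC on either strand). Each is the stretch of the 250 bases before the RefSeq start that no annotated untranslated region covers. For Ezh2 and Jarid2 the gene in GENCODE M21 begins upstream of the window, at 47595341 and 44729474. Both of these windows therefore lie inside the annotated gene. The coordinates are chr6:47595059-47595183 (minus strand), chr7:89980984-89981226 (minus strand), chr11:79992856-79993105 (plus strand) and chr13:44730524-44730773 (plus strand, the first of 2 starts of Jarid2).
Ezh2: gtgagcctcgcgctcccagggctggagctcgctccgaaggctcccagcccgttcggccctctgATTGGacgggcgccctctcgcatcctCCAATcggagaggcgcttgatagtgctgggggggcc
Eed: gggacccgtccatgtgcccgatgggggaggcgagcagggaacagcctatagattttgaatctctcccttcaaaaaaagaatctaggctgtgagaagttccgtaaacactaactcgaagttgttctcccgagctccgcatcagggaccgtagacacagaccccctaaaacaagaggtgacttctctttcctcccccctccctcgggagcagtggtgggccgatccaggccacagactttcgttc
Suz12: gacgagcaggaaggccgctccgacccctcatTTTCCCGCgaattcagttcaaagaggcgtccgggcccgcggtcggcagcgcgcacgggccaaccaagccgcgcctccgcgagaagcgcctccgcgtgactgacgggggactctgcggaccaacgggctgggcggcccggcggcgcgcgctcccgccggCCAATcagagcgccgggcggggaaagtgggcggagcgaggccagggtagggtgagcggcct
Jarid2: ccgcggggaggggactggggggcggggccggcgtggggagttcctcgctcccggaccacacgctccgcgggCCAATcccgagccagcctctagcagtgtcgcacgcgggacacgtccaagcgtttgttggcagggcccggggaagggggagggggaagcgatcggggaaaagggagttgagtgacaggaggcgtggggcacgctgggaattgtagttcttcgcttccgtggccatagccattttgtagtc

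The letters CCAAT stood 3 times in the 250 bases before the Ezh2 start, beginning 90, 64 and 11 bases before it (the last lies in an annotated untranslated region and is not printed), and once each before Suz12, the first Jarid2 start and the second Mtf2 start. They were not found in the Eed window. Of 32851 promoter windows of this length, 33.8% held CCAAT. TTTCCCGC, held by 0.895% of windows, was found before Suz12, 219 bases from the start, and before Phf19, 208 bases from it. TTTGGCGC, held by 0.417% of windows, was found in none of the 10 windows of these genes. The hypoxia response core ACGTG, in 16.6% of windows on either strand, stood before Ezh2, the first Jarid2 start and Kdm6a. In the Ezh2 window it began 246 bases before the start, in an annotated untranslated region that is not printed. The cAMP response element TGACGTCA, in 1.55% of windows, was in none of the 10, nor was the NRF1 motif (0.782%) or CCGGAAG (ETS, 6.91%). GGGCGG, the GC box, in 32.7% of windows, was in those of Suz12, Jarid2, Phf19, Mtf2 and Kdm6a. The 250-base windows held 23 CpG dinucleotides for Ezh2, 12 for Eed, 37 for Suz12 and 23 for the first Jarid2 start, against a median of 6 over all windows. A match is a description of letters, and no binding was measured.

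Ezh2, the main methyltransferase of the complex in dividing cells, was the member with the highest level and the only one called lower. Eed had the same mean difference and Jarid2 a more negative one, but neither passed the threshold. Its gene (ENSMUSG00000029687) lies on chromosome 6 from 47530139 to 47595341 (GRCm38). It stood at 159 FPKM in Th0 2 and 181 in Th0 3, and at 114 in Th0+Dopa 2 and 131 in Th0+Dopa 3. Both dopamine libraries were below both Th0 libraries, and the fold within a table was 0.717 for the libraries numbered 2 and 0.723 for those numbered 3. The group means were 170.4 ± 15.6 and 123 ± 12.0 FPKM (SD, n = 2 libraries in each group, one from each table). The log2 difference was -0.47 ± 0.10, a change of -27.8%, with a 95% interval from -0.72 to -0.22 (limma adjusted p = 0.0424). The direction was the same under all 14 alternatives, but the adjusted p missed the threshold in 8 of them. Among the 8 were a correction for GC content and transcript length (-0.34, limma adjusted p = 0.0748) and the 4 fits without 1 library. These 4 fits also dropped the block for the table and rescaled the libraries. They therefore do not isolate the effect of a removed library. Their differences were -0.54 without Th0 2, -0.39 without Th0+Dopa 2, -0.40 without Th0 3 and -0.55 without Th0+Dopa 3. With all 4 libraries and only the block dropped, limma adjusted p was 0.114.

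**Figure D1:**
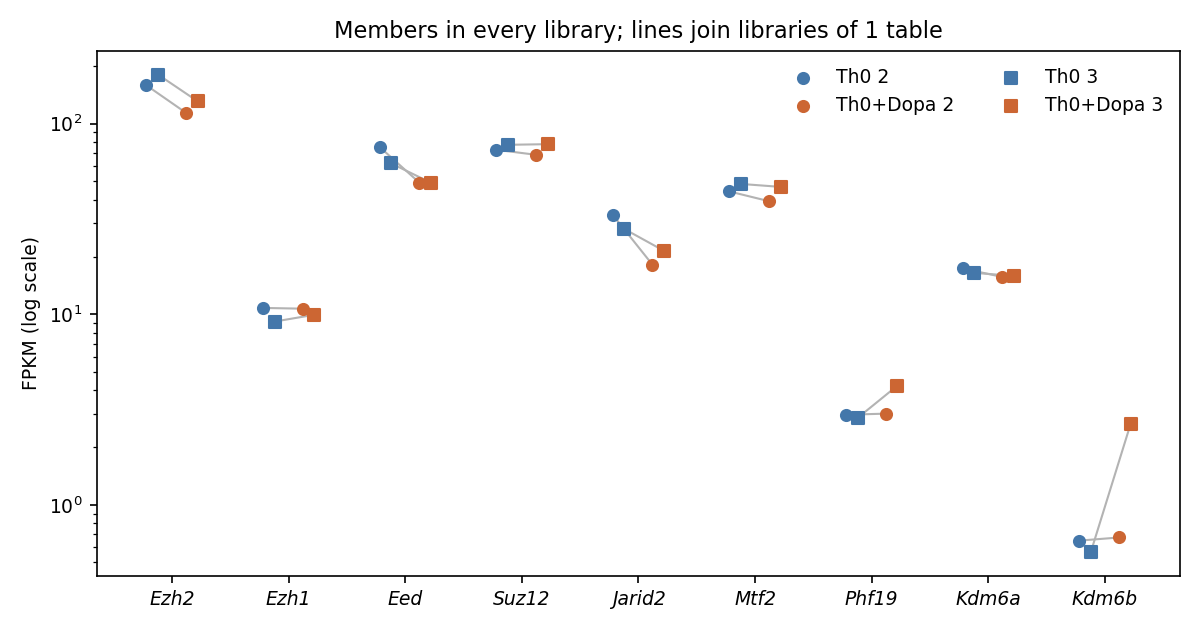
FPKM of the 9 genes in each of the 4 libraries on a logarithmic axis, with grey lines joining the Th0 and Th0+Dopa libraries of one table. Ezh2, Eed, Jarid2 and Kdm6a have both dopamine libraries below both Th0 libraries, and Kdm6b stands apart in Th0+Dopa 3 at 2.65 FPKM.

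Ezh1, the paralog that is the less active methyltransferase and is typical of resting cells, was far lower than Ezh2 and had overlapping groups. The gene (chromosome 11, 101191115 to 101226463) had 10.8 and 10.7 FPKM in the Th0 and Th0+Dopa libraries numbered 2, and 9.16 and 9.94 in those numbered 3. The difference was 0.05 ± 0.16, with an interval from -0.35 to 0.45 (limma adjusted p = 0.888). The ratio of Ezh2 to Ezh1 FPKM, which scaling of a library does not move, was 14.8 in Th0 2 and 19.8 in Th0 3, against 10.7 and 13.2 with dopamine. It was lower with dopamine in both tables, by 0.46 and 0.59 on the log2 scale, with a mean difference of -0.52 ± 0.09 (SD over 2 tables, no test).

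Eed, whose protein recognises H3K27me3 and stimulates the enzyme, was lower with dopamine in both tables but did not pass. It stood at 75.5 FPKM in Th0 2 and 61.9 in Th0 3, and at 49.1 and 49.0 in Th0+Dopa 2 and 3. The 2 Th0 libraries differed more from each other than the dopamine libraries did, and the groups did not overlap. The difference was -0.47 ± 0.12, with an interval from -0.77 to -0.17 (unadjusted p = 0.00933, limma adjusted p = 0.0682). In the fits without 1 library, where it was not taken within a table, it ran from -0.63 without Th0 3 to -0.31 without Th0 2. The gene lies on chromosome 7 from 89954654 to 89980983.

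Suz12, the scaffold subunit, differed little between the 4 libraries. It was at 73.0 and 68.7 FPKM in the Th0 and Th0+Dopa libraries numbered 2, and 77.5 and 78.1 in those numbered 3, with overlapping groups. The difference was -0.04 ± 0.11, with an interval from -0.30 to 0.22 (limma adjusted p = 0.858). After the correction for GC content and length it was 0.35 ± 0.09 (adjusted p = 0.0849). Transcripts of Suz12 had the lowest mean GC content of the 9 genes (38.75%), against 44.01% for Ezh2, and under the same correction Ezh2 had -0.34 and Eed -0.31. The gene lies on chromosome 11 from 79993106 to 80034123.

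Set against Suz12 in the same library, Ezh2, Eed and Jarid2 were each lower with dopamine, while Mtf2 was close to even. Suz12 itself had a difference of only -0.04, so these ratios largely repeat the differences of the genes themselves. Ezh2 had 2.18 and 2.34 times the FPKM of Suz12 in Th0 2 and 3, and 1.66 and 1.68 times with dopamine. Eed had 1.03 and 0.799 times against 0.714 and 0.628, and Jarid2 0.454 and 0.361 times against 0.264 and 0.276. For Mtf2 the ratios were 0.605 and 0.623 in Th0 and 0.571 and 0.597 with dopamine. The ratio of Ezh2 to Eed was 2.11 and 2.93 in Th0 and 2.33 and 2.68 with dopamine, so its groups overlapped. The FPKM of Ezh1, Ezh2, Eed and Suz12 summed to 319 and 330.0 in Th0 and to 243 and 268 with dopamine, a mean log2 difference of -0.35 ± 0.07 (SD over 2 tables, no test).

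**Figure D2:**
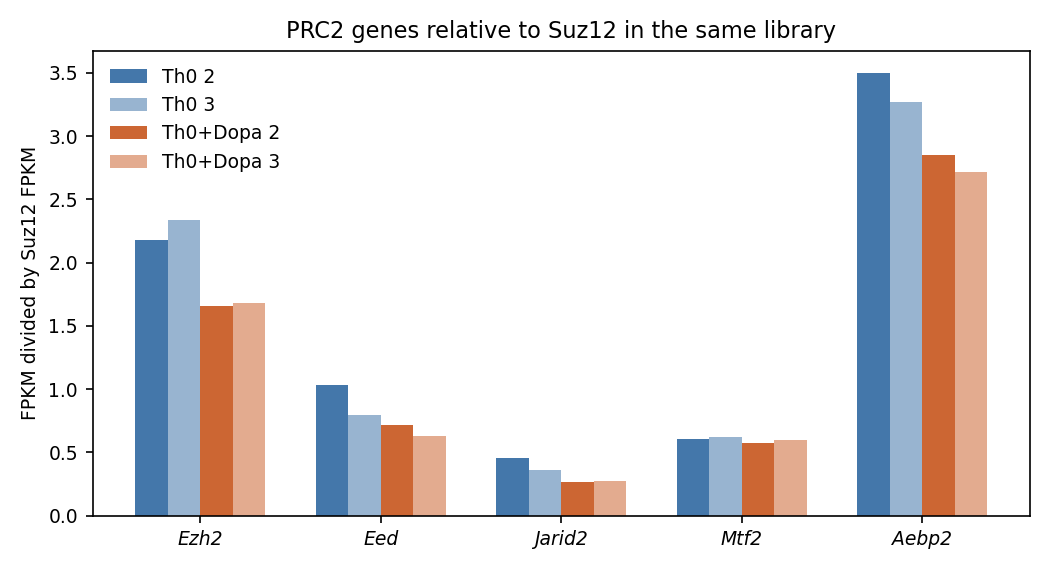
FPKM of 5 PRC2 genes divided by the FPKM of Suz12 in the same library, with bars for Th0 2, Th0 3, Th0+Dopa 2 and Th0+Dopa 3. For Ezh2 the bars are at 2.18 and 2.34 in Th0 and at 1.66 and 1.68 with dopamine, while those of Mtf2 lie between 0.571 and 0.623.

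Among the accessory members, Jarid2, a DNA-binding cofactor of PRC2.2 that has lost demethylase activity, had the most negative difference of the 9 genes and did not pass. It stood at 33.2 FPKM in Th0 2 and 28 in Th0 3, and at 18.2 in Th0+Dopa 2 and 21.5 in Th0+Dopa 3. Both dopamine libraries were below both Th0 libraries, and the drop was deeper in the libraries numbered 2 (-0.83) than in those numbered 3 (-0.37). The difference was -0.60 ± 0.16, with an interval from -0.99 to -0.21 (unadjusted p = 0.0101, limma adjusted p = 0.0718). The gene lies on chromosome 13 from 44729474 to 44921643.

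Mtf2, a Polycomb-like protein that brings PRC2 to CpG islands, had overlapping groups. It was at 44.1 and 39.2 FPKM in the Th0 and Th0+Dopa libraries numbered 2, and 48.3 and 46.6 in those numbered 3, a difference of -0.11 ± 0.11 with an interval from -0.39 to 0.17 (limma adjusted p = 0.584). Its neighbour Tmed5 overlaps it by 2639 bases on the opposite strand at a similar level (35.3 to 45.0 FPKM), and no source used here says whether counting took strand into account. The gene lies on chromosome 5 from 108065674 to 108109004.

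Phf19, also a Polycomb-like protein and a binder of H3K36 methylation, was low and differed mostly through 1 library. It had 2.97 and 3.01 FPKM in the Th0 and Th0+Dopa libraries numbered 2, and 2.86 and 4.22 in those numbered 3. The difference was 0.22 ± 0.25, with an interval from -0.40 to 0.85 (limma adjusted p = 0.61), and it was 0.01 in the libraries numbered 2 and 0.43 in those numbered 3. The gene lies on chromosome 2 from 34893757 to 34914026.

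**Figure D3:**
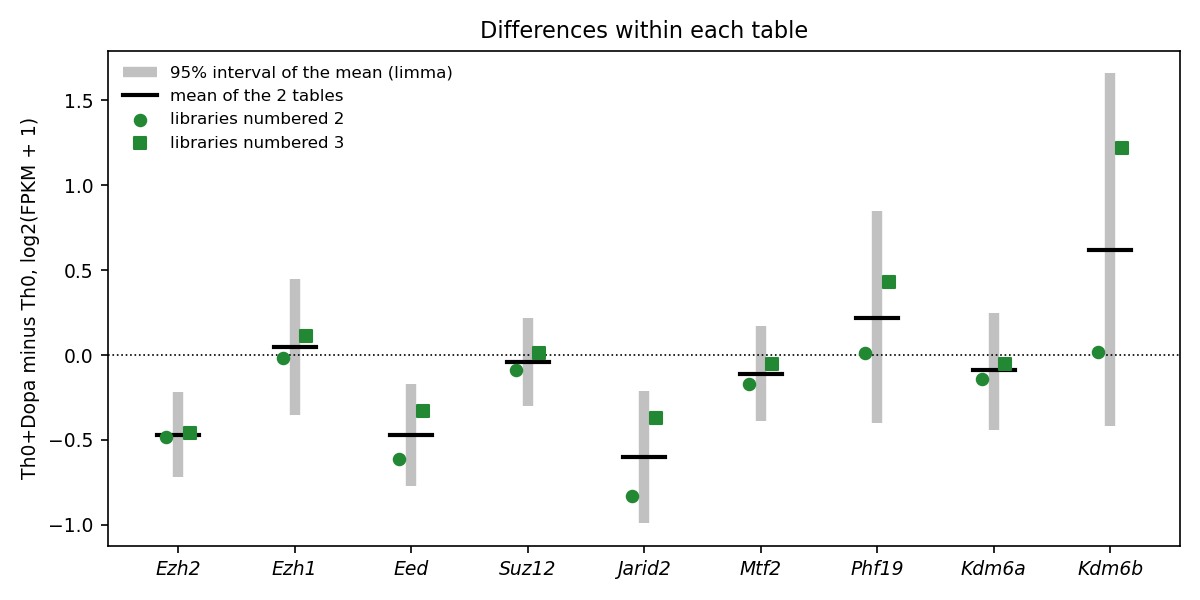
Differences Th0+Dopa minus Th0 on the log2(FPKM + 1) scale for each gene, with a point for each table, a black bar for the mean and a grey bar for the 95% interval from limma. The intervals of Ezh2 (-0.72 to -0.22), Eed (-0.77 to -0.17) and Jarid2 (-0.99 to -0.21) lie below 0, and that of Kdm6b runs from -0.42 to 1.66.

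The demethylase Kdm6a, which acts with the H3K4 methyltransferases MLL3 and MLL4, differed little between the libraries. The gene, on chromosome X from 18162575 to 18279936, had 17.4 and 15.7 FPKM in the Th0 and Th0+Dopa libraries numbered 2, and 16.5 and 15.9 in those numbered 3. The dopamine libraries were just below the Th0 libraries, with a difference of -0.09 ± 0.14 and an interval from -0.44 to 0.25 (limma adjusted p = 0.709). Uty, its homolog on the Y chromosome, had 10.7 and 10.8 FPKM in Th0 and 8.75 and 8.49 with dopamine (-0.29 ± 0.16, adjusted p = 0.303).

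Kdm6b, the demethylase that immune stimuli are known to induce, was barely detected in 3 libraries and higher in 1. The gene, on chromosome 11 from 69398508 to 69413675, had 0.649 FPKM in Th0 2, 0.674 in Th0+Dopa 2 and 0.567 in Th0 3, but 2.65 in Th0+Dopa 3. It passed the filter (mean 1.14 FPKM) only through that library. The difference was 0.02 in the libraries numbered 2 and 1.22 in those numbered 3, with a mean of 0.62 ± 0.42 and an interval from -0.42 to 1.66 (limma adjusted p = 0.389). Without Th0+Dopa 3 the difference was 0.07, and without Th0+Dopa 2 it was 1.17, in fits that also had no block for the table. From the size of the smallest steps in the values, these levels correspond to about 28, 29, 18 and 113 fragments in Th0 2, Th0+Dopa 2, Th0 3 and Th0+Dopa 3 if all came from the longest annotated transcript, and to 15, 16, 10 and 62 at the mean transcript length. The antisense transcript Kdm6bos, which overlaps it by 1188 bases, had 0.829, 0.759, 0.552 and 0.853 FPKM in the same order.

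The ratio of Kdm6a to Kdm6b followed the same library, at 26.8, 23.3, 29.1 and 6.01 in Th0 2, Th0+Dopa 2, Th0 3 and Th0+Dopa 3 (mean log2 difference -1.24 ± 1.47, SD over 2 tables, or -0.72 with 1 FPKM added to both genes). The 2 demethylases together had 18.1 and 17.1 FPKM in Th0 and 16.4 and 18.6 with dopamine. Ezh1 and Ezh2 together had 9.42 and 11.2 times that sum in Th0 and 7.63 and 7.60 times with dopamine. This ratio was lower with dopamine in both tables, with no test.

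By mean FPKM the order of the 9 genes was the same in both groups. Ezh2 was highest, followed by Suz12, Eed, Mtf2, Jarid2, Kdm6a, Ezh1, Phf19 and Kdm6b. In Th0 the neighbours Suz12 (75.3 ± 3.19 FPKM, SD, n = 2) and Eed (68.7 ± 9.60) had overlapping ranges, while with dopamine they were at 73.4 ± 6.66 and 49.0 ± 0.00785. The other neighbours did not overlap in either group. With dopamine Phf19 was at 3.61 ± 0.851 and Kdm6b at 1.66 ± 1.40. In Th0, Ezh2 lay at percentile 95.9 of the tested genes by level, Ezh1 at 45.2 and Kdm6b at 1.13.

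Counted together, 1 of 9 members was called lower and 0 higher, against 4.39% and 6.28% of all tested genes. At an unadjusted p under 0.05, 3 were lower and 0 higher, against 12.2% and 15.7% of all tested genes. Groups did not overlap for 4 members with dopamine below and 2 with dopamine above, against 25.6% and 31.4% of all tested genes. With dopamine 5 members were lower in both tables and 2 were higher in both, against 32.3% and 37.6% of all tested genes. In both counts the 2 members with higher values were Phf19 and Kdm6b. Kdm6b passed the filter only through Th0+Dopa 3, where it is high, so its place in these counts supports no direction. The median difference of the members, Kdm6b included, was -0.09, against 0.03 for all tested genes. With each library scaled to a common FPKM sum, which moved the median of all genes to -0.20, Ezh2 (-0.72), Eed (-0.72) and Jarid2 (-0.84) were called lower, and Ezh1 (-0.19), Suz12 (-0.29), Mtf2 (-0.36) and Kdm6a (-0.33) had values below 0 like that median.

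The 7 other PRC2 subunits found in the tables included no call (0 of 7 by limma, with 1 higher and 1 lower at an unadjusted p under 0.05, median -0.10). Aebp2, the partner of Jarid2 in PRC2.2, was at 256 and 253 FPKM in Th0 and at 196 and 212 with dopamine (-0.32 ± 0.10, adjusted p = 0.114), with no overlap between the groups. Epop, which links PRC2.1 to elongin, was at 3.40 and 4.09 FPKM in Th0 and at 5.75 and 5.91 with dopamine (0.53 ± 0.21, adjusted p = 0.173). Rbbp7, the histone chaperone, had 0.12 ± 0.11 and Lcor -0.38 ± 0.24, neither past the threshold.

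The 2 forms of the complex were compared through their factors, a grouping made after the values were seen. Jarid2 and Aebp2 of PRC2.2 summed to 289 and 281 FPKM in Th0 and to 214 and 234 with dopamine. Mtf2, Phf19, Phf1, Epop and Lcor of PRC2.1 summed to 56.2 and 61.4 in Th0 and to 51.6 and 62.1 with dopamine. The ratio of the first sum to the second was 5.14 and 4.58 in Th0 and 4.14 and 3.76 with dopamine, lower in both tables by 0.31 and 0.28 on the log2 scale (no test). Aebp2 makes up most of the first sum. Lcorl, another gene on the list of PRC2 subunits, was in neither sum (4.88 and 4.71 FPKM in Th0, 3.99 and 4.83 with dopamine).

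In PRC1, which ubiquitinates histone H2A and in some of its forms reads the mark, 1 of 20 tested subunits rose and 1 fell, with a median of 0.12. Ring1, a catalytic subunit, rose from 6.68 and 5.19 FPKM to 12.9 and 9.27 (0.79 ± 0.17, limma adjusted p = 0.0446). Pcgf5, which marks a variant form of PRC1, fell from 51.2 and 57.7 FPKM to 27.9 and 32.2 (-0.84 ± 0.11, adjusted p = 0.0123). Rnf2, the other catalytic subunit, was at 25.4 and 27.7 FPKM in Th0 and 25 and 25.9 with dopamine. The deubiquitinase complex PR-DUB, which removes the PRC1 mark, included 0 calls of 8 tested (0 higher and 1 lower at an unadjusted p under 0.05, median -0.07). Its member Asxl2 had -0.44 ± 0.15 and the enzyme Bap1 0.25 ± 0.12, neither past the threshold.

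The partners of Kdm6a in the MLL3 and MLL4 complexes included 0 calls of 9 (0 at an unadjusted p under 0.05, median 0.01). Wdr5, a shared subunit of these complexes, had 20.2, 15.3, 20.2 and 21.1 FPKM in Th0 2, Th0+Dopa 2, Th0 3 and Th0+Dopa 3, and Rbbp5, another, had 25, 20.8, 21.4 and 21.5. Kmt2d, which encodes MLL4, had 0.771, 0.818, 0.811 and 1.76 FPKM in the same order. Like Kdm6b it passed the filter only through Th0+Dopa 3, so its being highest in that library follows from the filter and shows no shared pattern. Kmt2c, which encodes MLL3, had 5.56, 4.81, 6.95 and 10.3 FPKM. Among H3K27 acetylases and deacetylases (0 of 5 called, 0 at an unadjusted p under 0.05, median -0.03), the acetylase gene Crebbp had 3.72, 2.63, 3.72 and 5.89 FPKM and was also highest in Th0+Dopa 3. The other acetylase gene, Ep300, had 2.42, 1.52, 2.66 and 4.42 FPKM. The deacetylase genes were highest elsewhere, with 52.0, 43.4, 47.1 and 43.8 FPKM for Hdac1, 95.9, 88.3, 104 and 88.8 for Hdac2, and 41.2, 42.1, 40.2 and 37.9 for Hdac3. Th0+Dopa 3 was the top library for 22% of all tested genes. Setd2, of the other histone lysine methyltransferases, was highest there too (11.4, 5.38, 13.5 and 19.1 FPKM). The longest annotated transcripts of Kmt2d, Kmt2c, Crebbp, Ep300 and Kdm6b have 19823, 14967, 10820, 9566 and 6654 bases. Jarid2, with 8353 bases, was highest in Th0 2. Whether transcript length has a part in this was not tested.

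Of the 16 other histone demethylases, 2 fell and 0 rose, with a median of -0.29 and with 9 of 16 having the dopamine libraries below both Th0 libraries (25.6% of all tested genes did). Kdm3a, an H3K9 demethylase known to be induced by hypoxia, fell from 46.0 and 47.7 FPKM to 21.8 and 23.1 (-1.03 ± 0.12, limma adjusted p = 0.00748). Kdm5a, an H3K4 demethylase, fell from 45.8 and 55 FPKM to 30.9 and 35.1 (-0.59 ± 0.11, adjusted p = 0.0333). Among 17 other histone lysine methyltransferases 2 rose, 0 fell, and the median was 0.07. They were the H3K9 methyltransferase gene Ehmt2, from 36.8 and 33.8 FPKM to 65.7 and 47.9 (0.66 ± 0.13, adjusted p = 0.0365), and the H4K20 methyltransferase gene Kmt5c, from 5.10 and 4.54 FPKM to 10.6 and 9.02 (0.89 ± 0.18, adjusted p = 0.038).

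**Figure D4:**
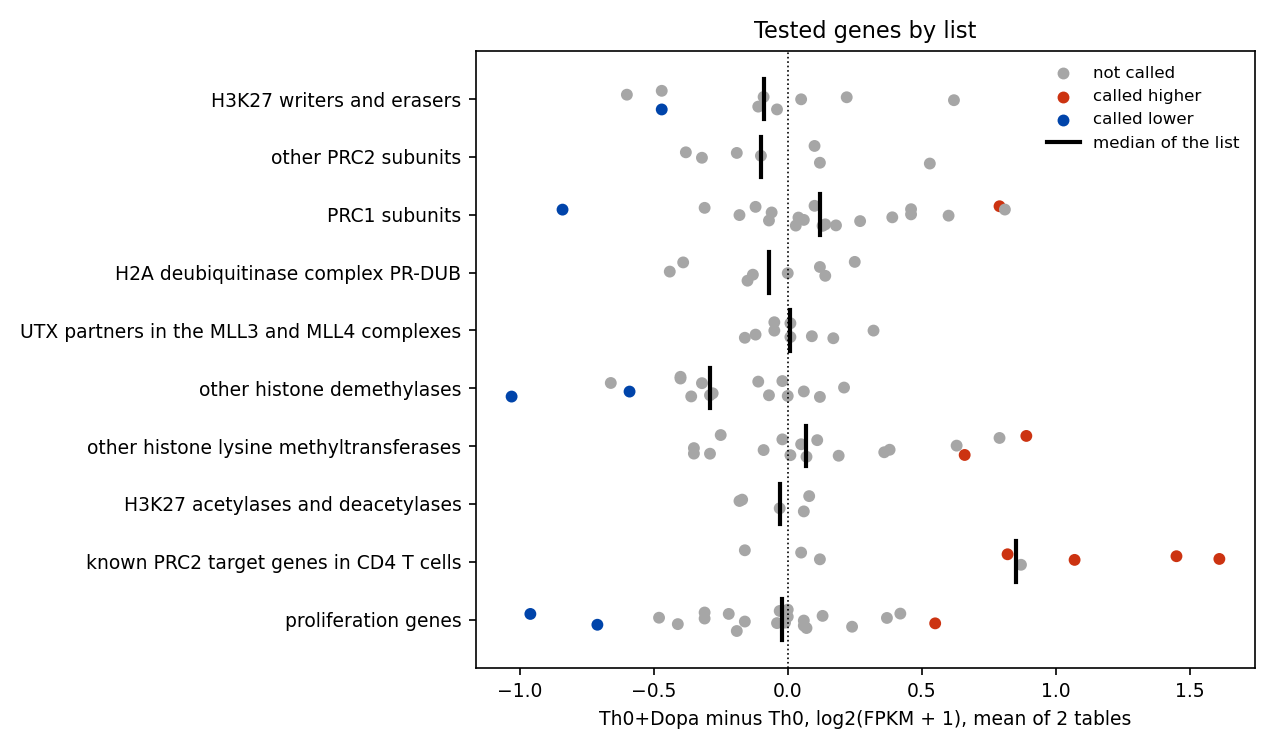
Difference Th0+Dopa minus Th0 on the log2(FPKM + 1) scale for each tested gene of 10 lists, with genes called by limma in colour and the median of each list as a black bar. The 9 members have a median of -0.09 and 1 call, and the other histone demethylases a median of -0.29 and 2 calls, all lower.

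Among 8 tested genes known as PRC2 targets in CD4 T cells, 4 rose and 0 fell, with a median of 0.85. Cdkn2a and Prdm1 had Th0 means under 1 FPKM (0.448 and 0.737) and passed the filter only through the dopamine group, so neither the count nor the median over the tested genes supports a direction, and of the other 6 genes 3 rose. Cdkn2a, a cell cycle inhibitor locus classically silenced by Polycomb, rose from 0.385 and 0.512 FPKM to 3.08 and 3.75 (1.61 ± 0.30, limma adjusted p = 0.0306). The cytokine genes Il4 (1.45 ± 0.12) and Il13 (1.07 ± 0.10) and the Th1 factor gene Tbx21 (0.82 ± 0.12) rose as well. The list was drawn up with earlier results on Il4, Il13 and Tbx21 in view and is no independent evidence of a direction. Gata3 (0.12 ± 0.14) and Ifng (-0.16 ± 0.22) did not pass. H3K27 methylation itself was not measured here.

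Of 22 proliferation genes, 1 rose and 2 fell, and the median of the list was -0.02. Mki67, the Ki-67 gene of cycling cells, fell from 131 and 133 FPKM to 70.9 and 90.5 (-0.71 ± 0.12, limma adjusted p = 0.0246), and the cyclin gene Ccne2 fell from 65.4 and 89.1 to 43.9 and 34.2 (-0.96 ± 0.20, adjusted p = 0.0393). Tk1, the thymidine kinase of S phase, rose (0.55 ± 0.11, adjusted p = 0.0365). The ratio of Ezh2 to Mki67 was 1.21 and 1.37 in Th0 and 1.61 and 1.45 with dopamine. Mki67 is 1 of the 2 genes that fell and does not stand for the list, whose median was -0.02 against a difference of -0.47 for Ezh2. Whether these differences share a source with that of Ezh2 was not tested.

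The protein-coding genes whose pattern over the 4 libraries was nearest to that of Ezh2, by the distance of their log2 values centred within each table, were Ccdc58, Dtx3l and Golim4. Ccdc58, for example, went from 73.5 and 77.6 FPKM to 52.6 and 55.7. Of 10153 tested protein-coding genes, 230 lay within a distance of 0.1 of Ezh2. Nearest to Kdm6b were Arhgef1, Thap1 and Sf3a1, with 5 genes within that distance, and Arhgef1 had 24.8, 24.7, 15.7 and 39.5 FPKM in Th0 2, Th0+Dopa 2, Th0 3 and Th0+Dopa 3.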

How the data were processed

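Total RNA of 4 libraries was sequenced paired-end after depletion of ribosomal RNA and globin mRNA with a stranded kit, per the labels' protocols. The deposited values are FPKM made by the authors in 2 separate tables. The submitters' processing notes name Trimmomatic 0.35, STAR 2.4.2, Cufflinks 2.2.1 and mm10. The annotation, normalization options and use of strand are stated in no source used here. GENCODE M21 named 36423 of 38282 IDs.

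Differences on log2(FPKM + 1) were tested with limma 3.58.1 in R 4.3.3 (lmFit, eBayes with trend, table as block, two-sided, Benjamini-Hochberg) over 11423 genes. The fit has 1 residual degree of freedom, and the prior adds 4.7. The code was tested on simulated data. Intervals are at 95%.

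Values fell near whole multiples of 1 fragment. On 1 kb of transcript 1 fragment was worth 0.153, 0.154, 0.205 and 0.153 FPKM in Th0 2, Th0+Dopa 2, Th0 3 and Th0+Dopa 3, with 89.1% to 89.7% of low values within 0.15 fragment of a whole number (30% by chance). These depths are estimates.

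The members and lists were chosen with earlier results of these data known. All members were named, with up to 4 genes of each list by the smallest p among its calls (or among all its genes), and the 3 nearest patterns to Ezh2 and Kdm6b. Rnf2, Uty, Gata3, Ifng, Prdm1, Lcorl, Ep300, Setd2, Cd4, Lck and the 2 factor groups of PRC2 were added after their values were seen. One listed gene, Ezhip, had no row. The results were recomputed with another pseudocount, other filters and scalings, limma without trend or with robust estimation, a GC and length correction (loess, span 0.3), no block and each library left out.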

Additional observations from a re-analysis of the deposited data

How the results depend on the processing

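In all alternatives 0 members were called higher. The number called lower, 1 as reported, was 2 with a pseudocount of 0.1 (Ezh2 and Jarid2), 3 with libraries scaled to a common FPKM sum or with small RNA genes left out before that (Ezh2, Eed and Jarid2), and 0 with no filter on low values, without limma's trend, without the replicate block, with the GC and length correction beside the block, and in each fit without 1 library (0 to 0). The calls over all genes, 1218 as reported, were 740 with no filter, 1907 with small RNA left out, 496 without the block, 256 without the trend, and 50 to 316 in fits without 1 library, which left out 52 or 79 genes with no spread in the remaining pair. Of the calls, 58.9% were higher as deposited and 26.1% with a common sum. Same-numbered libraries deviated from their group means together only weakly (Pearson's r = 0.0869 across 11423 genes, which are not independent replicates), so the number is not shown to pair the samples. The block was kept because each table was made on its own. For Ezh2, adjusted p was 0.0628 with no filter, 0.172 without the trend and 0.114 without the block, and its difference ran from -0.55 to -0.39 in fits without 1 library. Ezh1 had -0.19 with a common sum, -0.14 with small RNA left out, and from -0.08 to 0.17 in fits without 1 library (-0.02 without Th0+Dopa 2, -0.08 without Th0 3). Suz12 had 0.35 after the GC and length correction and from -0.11 to 0.04 in fits without 1 library (0.04 without Th0+Dopa 2), and Mtf2 and Kdm6a had 0.07 and 0.05 after that correction. These reversals were of values that did not pass, and the cause was not tested. The summed level of the 4 core genes had a difference of -0.60 with a common sum, which shifts all genes down. At the estimated depth, levels under about 1 FPKM, such as those of Kdm6b, rest on few fragments.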
